A study of Bos taurus with 8 samples.

Results

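Elastic fibers and their microfibrils were examined through a list of 10 genes, made up of elastin (*ELN*), the fibrillins *FBN1* and *FBN2*, the fibulins *EFEMP1*, *EFEMP2*, *FBLN1*, *FBLN2* and *FBLN5*, and the microfibril-associated glycoproteins *MFAP2* and *MFAP5*. The genes were matched by symbol, and 9 of the 10 were found among 18871 gene rows. *FBN2* was not analysed here. RNA-seq counts came from 8 preadipocyte clones of adult Angus-cross steers, 4 grown from the stromal vascular fraction of intramuscular fat (IMF1 to IMF4) and 4 from that of subcutaneous fat (SF1 to SF4). All animals were male, no treatment separated the groups, and the comparison addressed how preadipocytes of the depots differ in gene expression. The study made the clones by limiting dilution, aiming for at most 1 cell per well, and expanded them in culture. Whether each clone descends from 1 cell was not tested here. Cell shape, lipid formation and growth decided which clones were used. The authors name this selection as a limit on what the clones say about a depot. The study's methods place RNA collection before adipogenic induction, whereas the series description places it afterwards, so that the state of the cells is not certain.

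An elastic fiber has a core of crosslinked elastin laid on a scaffold of fibrillin microfibrils. Cells secrete the soluble precursor tropoelastin, which gathers into globules, is passed to the microfibrils with the help of fibulins, and is then joined by lysyl oxidases into a stretchable polymer. Fibrillin microfibrils also exist without elastin and hold latent transforming growth factor beta (TGF-beta) in the matrix, and in fat and muscle such fibers run through the connective tissue around cells and vessels.

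The summed gene counts were 19654917, 29308882, 20154941 and 20693899 in IMF1 to IMF4 and 20482958, 19979899, 24868233 and 21034462 in SF1 to SF4. Levels are given as CPM, which is counts scaled to library sizes normalized by the TMM method, and as TPM, which also divides by gene length, where genes are compared with each other. A count of 3, taken as the smallest level the depth could show, corresponded to between 0.0981 and 0.165 CPM, and this floor covers counting error only. A gene was past both thresholds when edgeR's quasi-likelihood test over 18339 genes gave a Benjamini-Hochberg adjusted p under 0.05 with an absolute log2 fold change, IMF minus SF, of 1 or more. Each clone of a depot came from a separate stromal vascular sample. The methods and the labels each give fewer steers than the 8 clones. If each sample of a depot came from a different steer, some steers gave clones to both depots, though which ones is not stated. The p-values measure only the spread between these clones, which may in part be technical. Of the 18871 gene symbols, 4450 were not in the RefSeq list of the bovine assembly ARS-UCD2.0, and these took between 7.12% and 10.6% of the counts of a clone. The gene with the most counts in all 8 clones was *KRT17*, an epithelial keratin, with between 3.65% and 7.80% of the counts. These rows enter the library sizes behind CPM and TPM.

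Of the 9 elastic fiber genes tested, 7 were past both thresholds, compared with 8.82% of all genes tested. The genes were chosen with earlier results of these data known, so this contrast is not an independent test of the list. *EFEMP1* was higher in the IMF clones, and *EFEMP2*, *FBLN1*, *FBLN2*, *FBLN5*, *MFAP2* and *MFAP5* were lower. Over all genes, 4.78% were called higher and 4.04% lower. *ELN* had an adjusted p under 0.05 with a fold change below the threshold, a condition without the fold limit that 25.8% of all genes met, and *FBN1* passed neither. The median log2 fold change of the 9 genes was -1.32, beside -0.03 over all genes tested. Every IMF clone lay below every SF clone in 6 of the 9 genes (14.1% of all genes), above in 2 (18.0% of all genes), so that 8 of 9 did not overlap, compared with 32.1% of all genes, and the groups overlapped in *FBN1*. When counts were scaled by their total alone, 2 of 7 called genes were higher in IMF, *ELN* being called and *EFEMP2* not, the share of higher calls over all genes moved from 54.2% to 66.7%, and the median of all genes moved from -0.03 to 0.12.

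**Figure D1:**
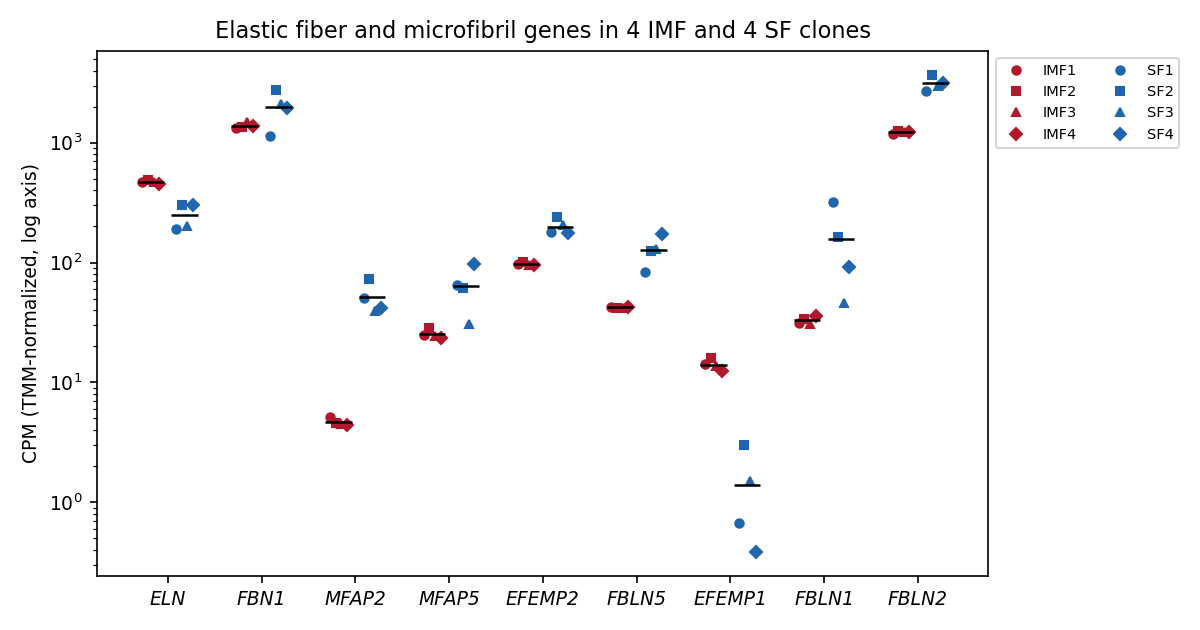
Normalized CPM (log axis) of the 9 elastic fiber genes, with 1 point per clone, IMF in red and SF in blue, and a black line at the mean of each group of 4. The 4 IMF points of each gene lie close together, from 4.43 to 5.13 CPM in *MFAP2* for example, and the SF points are spread more widely, from 46.1 to 323 CPM in *FBLN1*.

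*ELN* (chromosome 25, 33277411 to 33310464 in ARS-UCD2.0) encodes tropoelastin, the monomer of the elastic core. Its level was 473, 489, 467 and 450.5 CPM in IMF1 to IMF4 and 189, 299, 203 and 304 CPM in SF1 to SF4. All IMF clones lay above all SF clones, and among the SF clones SF2 and SF4 were high and SF1 and SF3 low. The means were 469.8 ± 15.8 CPM (IMF) and 249 ± 61.2 CPM (SF; SD, n = 4 each), 1.89-fold higher in IMF. The log2 fold change was 0.92 with a standard error of 0.17 and an adjusted p of 0.00512 in edgeR's test, which did not reach the fold threshold. It crossed that threshold without SF2 (1.02) and without SF4 (1.03), so the call of *ELN* rested on single SF clones and, as stated above, on the scaling.

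*FBN1* (chromosome 10, 61654504 to 61919167) encodes fibrillin 1, the main structural protein of microfibrils after birth. The IMF clones had 1320.3, 1364, 1477 and 1381 CPM, and the SF clones had 1147, 2735, 2121 and 1949 CPM. SF1 lay below every IMF clone while SF2, SF3 and SF4 lay above, so the groups overlapped. Means of 1386 ± 66.3 CPM (IMF) and 1988 ± 654 CPM (SF; SD, n = 4 each) differed by less than the spread of the SF clones allowed to be called, with a log2 fold change of -0.52, a standard error of 0.23 and an adjusted p of 0.139 in edgeR's test. This depended on SF1, without which the log2 fold change was -0.71 with an adjusted p of 0.00603, still short of the fold threshold.

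The microfibril-associated glycoproteins are small proteins that bind fibrillin and decorate the microfibril. *MFAP2* (chromosome 2, 135609074 to 135615966), which encodes MAGP-1, had 5.13, 4.61, 4.49 and 4.43 CPM in the IMF clones and 50.9, 73.5, 39.7 and 41.4 CPM in the SF clones. The groups were far apart, and the lowest SF clone, SF3, stood well above the highest IMF clone, IMF1. The SF mean of 51.4 ± 15.6 CPM was 11.02-fold the IMF mean of 4.66 ± 0.322 CPM (SD, n = 4 each), and the log2 fold change was -3.46 with a standard error of 0.21 (adjusted p = 2.0e-05, edgeR's test). Among all genes ranked by mean TPM, *MFAP2* stood at percentile 51.0 in the IMF clones and 92.4 in the SF clones.

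*MFAP5* (chromosome 5, 101191953 to 101203712), which encodes the paralogue MAGP-2, had 25.1, 28.3, 24.4 and 23.7 CPM in the IMF clones. In the SF clones it had 65.0, 61.3, 30.6 and 97.2 CPM. All SF clones were above all IMF clones, but SF3 only slightly, and SF4 was the highest. The means were 25.4 ± 2.06 CPM (IMF) and 63.5 ± 27.3 CPM (SF; SD, n = 4 each), 2.51-fold higher in SF, with a log2 fold change of -1.32, a standard error of 0.30 and an adjusted p of 0.0124 in edgeR's test. Both glycoprotein genes were therefore lower in the IMF clones, and by unequal amounts, which is taken up with the ratios below.

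Fibulins 4 and 5, encoded by *EFEMP2* and *FBLN5*, bind tropoelastin and lysyl oxidases or their relatives and are needed to assemble elastic fibers. *EFEMP2* (chromosome 29, 43984835 to 43992177) had 97.2, 102, 95.4 and 96.2 CPM in the IMF clones and 178, 239, 205 and 177 CPM in the SF clones. The groups were separate, with SF2 highest. Means of 97.6 ± 2.86 CPM (IMF) and 199.8 ± 29.05 CPM (SF; SD, n = 4 each) gave a 2.05-fold higher level in SF, a log2 fold change of -1.03 and a standard error of 0.11 (adjusted p = 0.000317, edgeR's test). This value lay close to the fold threshold and missed it without SF2 (-0.94) and when counts were scaled by their total alone (-0.89).

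*FBLN5* (chromosome 21, 56567084 to 56659769) had 42.8, 41.7, 42.0 and 42.2 CPM in the IMF clones, which as a fold between the highest and the lowest (1.03) was the narrowest range of the 9 genes. The SF clones had 83.5, 125, 129 and 173 CPM. Every SF clone was above every IMF clone, with SF1 the lowest and SF4 the highest of them. The means of 42.2 ± 0.482 CPM (IMF) and 128 ± 36.6 CPM (SF; SD, n = 4 each) differed 3.03-fold, with a log2 fold change of -1.60, a standard error of 0.19 and an adjusted p of 0.00067 in edgeR's test.

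*EFEMP1* (chromosome 11, 38484919 to 38554402) encodes fibulin 3, a short fibulin known from the fascia and from the eye, where a variant form accumulates under the retina. It was counted 294, 485, 300 and 263 times in IMF1 to IMF4 and 13, 60, 37 and 7 times in SF1 to SF4, which is 14.1, 15.9, 13.6 and 12.5 CPM in IMF and 0.667, 3.00, 1.50 and 0.386 CPM in SF. Every IMF clone was far above every SF clone, and SF2 and SF3 were higher than SF1 and SF4. The IMF mean of 14.0 ± 1.39 CPM was 10.1-fold the SF mean of 1.39 ± 1.18 CPM (SD, n = 4 each), and the log2 fold change was 3.32 with a standard error of 0.52 (adjusted p = 0.00227, edgeR's test). SF2 was the highest SF clone, and without it the log2 fold change was 3.99. In the annotation *EFEMP1* lies wholly inside *LOC107132925*, a longer gene listed as protein coding, so reads of the pair could have been shared or dropped in counting. Shorter annotated genes also overlap *FBN1* (the noncoding *LOC112448492* over 4922 bases, and a microRNA) and *FBLN2* (a transfer RNA), for which the same limit holds. Of the overlapping genes, *LOC107132925*, *LOC112448492* and the microRNA had no row under their symbols, so their own levels were not seen.

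*FBLN1* and *FBLN2* encode the long fibulins, which bind fibronectin, basement membrane proteins and elastic fibers. *FBLN1* (chromosome 5, 115888336 to 115968168) had 31.5, 33.6, 30.6 and 35.8 CPM in the IMF clones and 323, 163, 46.1 and 91.4 CPM in the SF clones. The groups did not overlap, yet the SF clones were unlike each other, with SF1 7.00-fold above SF3. Means were 32.9 ± 2.33 CPM (IMF) and 156 ± 121 CPM (SF; SD, n = 4 each), 4.74-fold higher in SF, and the log2 fold change was -2.25 with a standard error of 0.52 (adjusted p = 0.0147, edgeR's test). Without SF1 it was -1.61 and still past both thresholds.

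*FBLN2* (chromosome 22, 58328989 to 58398254) was the most abundant of the 9 genes by TPM in both groups. Its level was 1189, 1251, 1233 and 1233 CPM in the IMF clones and 2709, 3702, 2968 and 3124 CPM in the SF clones. The lowest SF clone, SF1, was well above the highest IMF clone, IMF2. The SF mean of 3126 ± 420.4 CPM was 2.55-fold the IMF mean of 1226 ± 26.4 CPM (SD, n = 4 each), with a log2 fold change of -1.35 and a standard error of 0.12 (adjusted p = 0.000157, edgeR's test).

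The order of the levels was compared by mean TPM. In the IMF clones it ran from *FBLN2* (479 TPM) through *FBN1* (235), *ELN* (211), *EFEMP2* (79.2), *MFAP5* (42.2), *FBLN5* (23.5), *FBLN1* (18.9) and *EFEMP1* (10.6) to *MFAP2* (5.71). Only the ranges of *FBN1* and *ELN* overlapped among neighbors in that order, although *FBN1* was the higher of the pair in each of the 4 IMF clones. In the SF clones the order was *FBLN2* (1210.4 TPM), *FBN1* (336), *EFEMP2* (161), *ELN* (110.2), *MFAP5* (102), *FBLN1* (89.0), *FBLN5* (69.7), *MFAP2* (62.8) and *EFEMP1* (1.09). There, each pair of neighbors from *FBN1* to *MFAP2* overlapped, while *FBLN2* stood above and *EFEMP1* below without overlap. *ELN* thus ranked above *EFEMP2* by mean TPM in the IMF clones and below it in the SF clones, and *MFAP2* was last in the IMF clones and next to last in the SF clones. The 9 genes summed to 1137, 1061, 1196 and 1026 TPM in IMF1 to IMF4 and to 1828, 2792, 2041 and 1910.1 TPM in SF1 to SF4, so that the lowest SF clone was above the highest IMF clone.

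The clones of the groups varied to different degrees. The coefficient of variation of the 9 genes lay between 1.14% (*FBLN5*) and 9.95% (*EFEMP1*) in IMF and between 13.5% (*FBLN2*) and 84.6% (*EFEMP1*) in SF, compared with medians of 6.60% and 13.4% over 10948 genes whose mean count reached 100 in each group. *EFEMP1*, counted 7 to 60 times in the SF clones, did not reach that level there. The highest clone exceeded the lowest by 1.03-fold to 1.27-fold in IMF. In SF the same ratio ran from 1.35-fold for *EFEMP2* to 7.79-fold for *EFEMP1*. SF2 was the highest SF clone in 5 of the 9 genes (*FBN1*, *EFEMP1*, *EFEMP2*, *FBLN2* and *MFAP2*), SF4 in 3 (*ELN*, *FBLN5* and *MFAP5*) and SF1 in 1 (*FBLN1*). No SF clone was high throughout, and the clone with the most *FBLN1*, SF1, had the least *ELN*, *FBN1*, *FBLN2* and *FBLN5*.

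The spread of the IMF clones was also set against counting noise, under which a gene's chi-square per degree of freedom would be near 1. At a given fold spread this chi-square rises with a gene's count, so it partly reflects abundance. It was 0.132 for *FBLN5*, 0.469 for *MFAP2*, 2.27 for *EFEMP2*, 3.57 for *EFEMP1*, 3.58 for *FBLN1*, 4.46 for *MFAP5*, 13.2 for *FBLN2*, 13.4 for *ELN* and 69.7 for *FBN1* among the IMF clones. Among the SF clones it ran from 18.9 for *EFEMP1* to 4227 for *FBN1*. The IMF clones differed no more than counting noise allows at the 5% level in 3 of the 9 genes, compared with 47.0% of the 10948 genes. The SF clones did so in 0 of the 9, compared with 19.25%. *EFEMP1* is among the 9, although its SF counts did not reach the mean of 100 asked of the 10948 genes. Over 10760 genes in the RefSeq list averaging 100 counts or more over the 8 clones, the median chi-square between a pair of IMF clones was from 1.26 to 2.72, and between a pair of SF clones from 3.50 to 8.14, where counting noise alone gives 0.455. The closeness of the IMF clones was thus not particular to the elastic fiber genes. By these medians it held for genes in the RefSeq list, though above counting noise, and not for 959 genes outside it. For those 959, the medians were from 14.8 to 54.4 between IMF clones and from 6.76 to 20.5 between SF clones. Not every gene in the RefSeq list went this way. The coefficient of variation was 37.95% in IMF and 12.0% in SF for *POGLUT3*, and 34.1% and 23.2% for *POGLUT2*. The cause of the closeness was not tested. If these clones are less independent than their labels state, the p-values given here are too small.

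Paralogues were compared as TPM ratios within each clone, which do not depend on library scaling. The ratio of *MFAP5* to *MFAP2* was 6.64, 8.35, 7.38 and 7.25 in the IMF clones and 1.74, 1.14, 1.05 and 3.20 in the SF clones. *MFAP5* was the more abundant of the pair in every clone, by a wide margin in IMF and by little in SF2 and SF3. The mean log2 ratio was 2.20 higher in IMF, or 4.60-fold (two-sided exact permutation test over 70 assignments, p = 0.0286, the smallest that 4 clones against 4 allow, and 0.0429 after Benjamini-Hochberg adjustment over 3 ratios). Leaving out any 1 IMF clone raised the exact permutation p to 0.0571 while the difference stayed between 2.14 and 2.25.

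The ratio of *EFEMP1* to *EFEMP2* was 0.135, 0.145, 0.133 and 0.121 in the IMF clones and 0.00360, 0.0118, 0.00688 and 0.00217 in the SF clones. *EFEMP2* was the more abundant in all 8 clones, and no SF clone came near the IMF range. The log2 difference was 4.73, or 26.5-fold (two-sided exact permutation test, p = 0.0286, adjusted p = 0.0429). The ratio of *FBLN2* to *FBLN1* was 25.5, 25.2, 27.2 and 23.3 in the IMF clones and 5.67, 15.3, 43.5 and 23.1 in the SF clones. The SF clones surrounded the narrow IMF range, and the log2 difference of 0.56 was smaller than their spread (two-sided exact permutation test, p = 0.457). It depended on single clones, being 1.00 without SF3 (exact permutation p = 0.0286) and 0.022 without SF1.

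**Figure D2:**
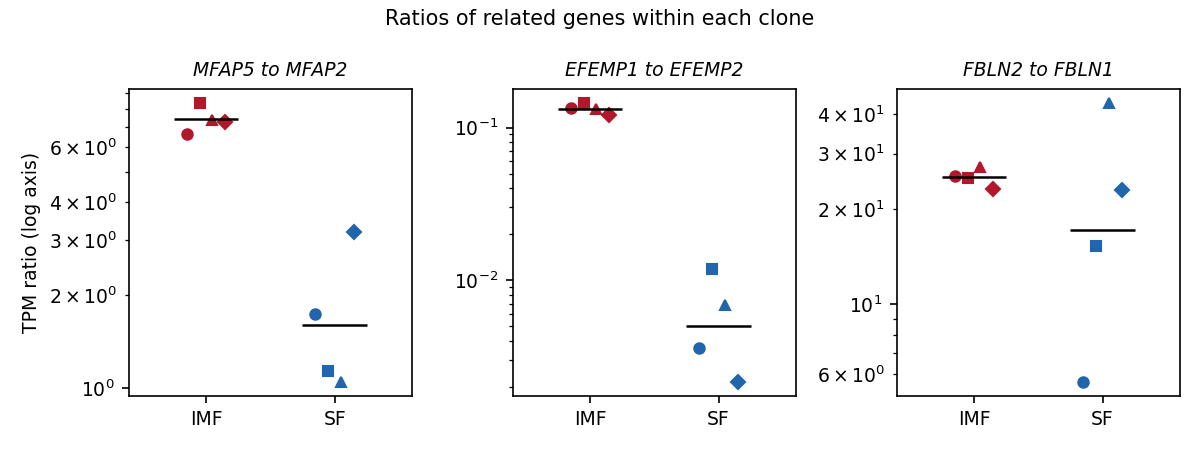
TPM ratio of 3 pairs of related genes in each clone (log axes), with IMF points in red, SF points in blue and a black line at the mean of the log2 ratios of each group of 4. The groups are apart for *MFAP5* to *MFAP2* (6.64 to 8.35 in IMF, 1.05 to 3.20 in SF) and for *EFEMP1* to *EFEMP2*, and the SF clones lie on both sides of the IMF clones for *FBLN2* to *FBLN1*.

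The genes whose profile over the 8 clones was most like that of *ELN* were sought among 9338 genes with a mean of at least 10 CPM, by the root mean square difference of log2 CPM after centering each gene on its own mean. The closest were *PCOLCE2* (0.0817), *ATP13A3* (0.102), *CSF1* (0.124), *SESTD1* (0.127) and *HERC4* (0.142). The other elastic fiber genes were farther from *ELN* than the median of all genes compared (0.554), from 0.743 for *FBN1* to 2.19 for *MFAP2*. This distance grows with the size of a difference as well as with its shape, and *EFEMP1* (1.52), which like *ELN* was above in every IMF clone, had a mean under the 10 CPM asked of the genes compared.

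Other genes of elastic fiber formation were taken from lists of 43 genes, of which 37 were tested. Of these, 10 were past both thresholds, 3 higher and 7 lower in the IMF clones, and 27 were not. As for the members, 8.82% of all genes give the background to these counts, and the lists were chosen with earlier results of these data known.

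Lysyl oxidases crosslink elastin and collagen, and ATP7A delivers the copper they need. Of 6 such genes, 2 were lower in the IMF clones and 4 did not pass. *LOXL2* had 268, 275, 254 and 261 CPM in the IMF clones and 1307, 960.1, 1188 and 921 CPM in the SF clones, which were far apart (log2 fold change -2.05 ± 0.13 SE, with 2.87e-05 as edgeR's adjusted p). *LOXL4* had between 144 and 153 CPM in IMF and between 430.4 and 793 CPM in SF, with SF3 highest (log2 fold change -1.84, adjusted p = 0.000428, edgeR's test). *LOX* and *LOXL1*, the relatives most closely tied to elastin, had values of another size. *LOX* had 762 ± 20.7 CPM (IMF) and 891 ± 292 CPM (SF; SD, n = 4 each) with overlapping groups (log2 fold change -0.23, adjusted p = 0.488, edgeR's test). *LOXL1* was separate between the groups with a log2 fold change of -0.50 (adjusted p = 0.00283, edgeR's test), short of the fold threshold. *LOXL3* (-0.27) and *ATP7A* (-0.09) overlapped between the groups and had no fixed direction. *LOXL3* turned to 0.41 without SF1, 0.03 with limma-voom and 0.01 with a replicate block, and *ATP7A* to 0.06 with total counts alone.

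Among 16 tested genes of proteins that bind microfibrils or are stored on them, 5 were lower, 1 was higher and 10 did not pass, with a median log2 fold change of -0.71. Latent TGF-beta binding proteins are built like fibrillins and anchor latent TGF-beta or bind fibulins. *LTBP2* had 614, 623, 663 and 673 CPM in the IMF clones and 2231, 2069, 2352 and 2322 CPM in the SF clones, with little spread in either group (log2 fold change -1.80 ± 0.10 SE, with 9.65e-06 as edgeR's adjusted p). *LTBP4*, which binds fibulin 5, had between 14.7 and 18.5 CPM in IMF and between 39.8 and 89.2 CPM in SF (log2 fold change -2.16, adjusted p = 0.000463, edgeR's test). *LTBP1* had between 9.47 and 10.7 CPM in IMF and 67.3, 22.3, 13.3 and 31.6 CPM in SF1 to SF4 (log2 fold change -1.73, adjusted p = 0.0215, edgeR's test). Its call was lost without any 1 IMF clone (adjusted p from 0.0506 to 0.0574) and with limma-voom (adjusted p = 0.0627), and its log2 fold change was -1.14 without SF1. *LTBP3*, with a log2 fold change of -0.57 (adjusted p = 0.000977, edgeR's test), did not reach the fold threshold.

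The secreted ADAMTS-like proteins and some ADAMTS proteases bind fibrillin and affect microfibril formation. *ADAMTSL4* (log2 fold change -1.25, adjusted p = 0.0131, edgeR's test) and *ADAMTSL5* (-1.26, adjusted p = 0.00326) were lower in the IMF clones. SF1 was high for *ADAMTSL4*, and without it the log2 fold change was -0.85, which is short of the threshold. *ADAMTS17* was higher, with 5.66, 5.13, 4.08 and 5.09 CPM in the IMF clones against 1.03, 0.200, 0.0812 and 0.0551 CPM in the SF clones. Its log2 fold change was 3.87 (SE 0.74, adjusted p = 0.00582, edgeR's test) and 4.59 with limma-voom. It was 5.41 without SF1, a size that is poorly determined because SF2, SF3 and SF4 held only 4, 2 and 1 counts. *EMILIN2*, which encodes a glycoprotein of elastic and other matrices, had between 29.6 and 31.8 CPM in IMF and 4.26, 149, 64.0 and 69.8 CPM in SF1 to SF4. SF1 lay below the IMF clones and the rest above, and the log2 fold change of -1.23 (adjusted p = 0.269, edgeR's test) became -1.62 without SF1 (adjusted p = 0.00508). It was smaller without SF2 (-0.59, adjusted p = 0.609) and with limma-voom (-0.43, adjusted p = 0.772), among others. The ligand genes *TGFB1* (-0.61) and *TGFB2* (-0.86) had adjusted p under 0.05 with fold changes short of the threshold, which *TGFB2* crossed without SF2 (-1.02), and *TGFB3* (-0.59, adjusted p = 0.226) did not pass.

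Of 2 tested relatives of the fibulins, *FBLN7* was higher in the IMF clones, at 2.18 ± 0.298 CPM compared with 0.428 ± 0.256 CPM in SF (SD, n = 4 each; log2 fold change 2.32 ± 0.45 SE, with 0.00618 as edgeR's adjusted p). *HMCN1*, which encodes the large fibulin relative hemicentin 1, had between 156 and 172 CPM in IMF and 190.4, 544, 154 and 548 CPM in SF1 to SF4. Its groups overlapped (log2 fold change -1.17, adjusted p = 0.0708, edgeR's test), and the call changed without SF1 (-1.38, adjusted p = 0.0355), without SF3 (-1.44, adjusted p = 0.0191) and with DESeq2 (-1.17, adjusted p = 0.0181).

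None of 7 genes for fibrillin processing, tropoelastin folding and the elastin receptor complex was past both thresholds in edgeR's test. The genes from which that complex is made, *GLB1* (-0.83), *NEU1* (-0.64) and *CTSA* (-0.46), had adjusted p under 0.05 with every IMF clone below every SF clone. Over all genes tested, 25.8% met the first condition and 14.1% the second. For *CTSA*, leaving out 1 clone raised the adjusted p to as much as 0.0507 in edgeR's test. The elastin-binding subunit is a splice product of *GLB1*, whose gene count also covers the lysosomal enzyme and does not give the level of that subunit. *FKBP10* (-0.06), a chaperone of tropoelastin and collagen, and *FURIN* (-0.24), which cleaves profibrillin, overlapped between the groups, and *FKBP10* turned to 0.10 with total counts alone and to 0.01 without SF1.

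Of 6 tested genes for proteases that degrade elastin or activate those that do, *MMP9* alone was past both thresholds. Its counts in IMF1 to IMF4 were 51, 70, 43 and 44, against 0 in each SF clone, which is at least 14.8-fold higher in IMF against a floor of 3 counts in each SF clone (adjusted p = 0.000413, edgeR's test). *MMP2*, the most abundant of them at 1952 TPM in IMF and 1936 TPM in SF, had a log2 fold change of 0.01 with overlapping groups and a sign that changed between alternatives (-0.18 without SF1). *CTSK* had between 509 and 585 CPM in IMF and 329, 1987, 1100.0 and 967 CPM in SF1 to SF4 (log2 fold change -1.02, adjusted p = 0.123, edgeR's test), and was past both thresholds without SF1 (-1.33, adjusted p = 0.00581). *CTSS* (-0.85, adjusted p = 0.312) passed without SF4 (-1.19, adjusted p = 0.0412), and *MMP14* had a log2 fold change of -0.56 with overlapping groups.

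**Figure D3:**
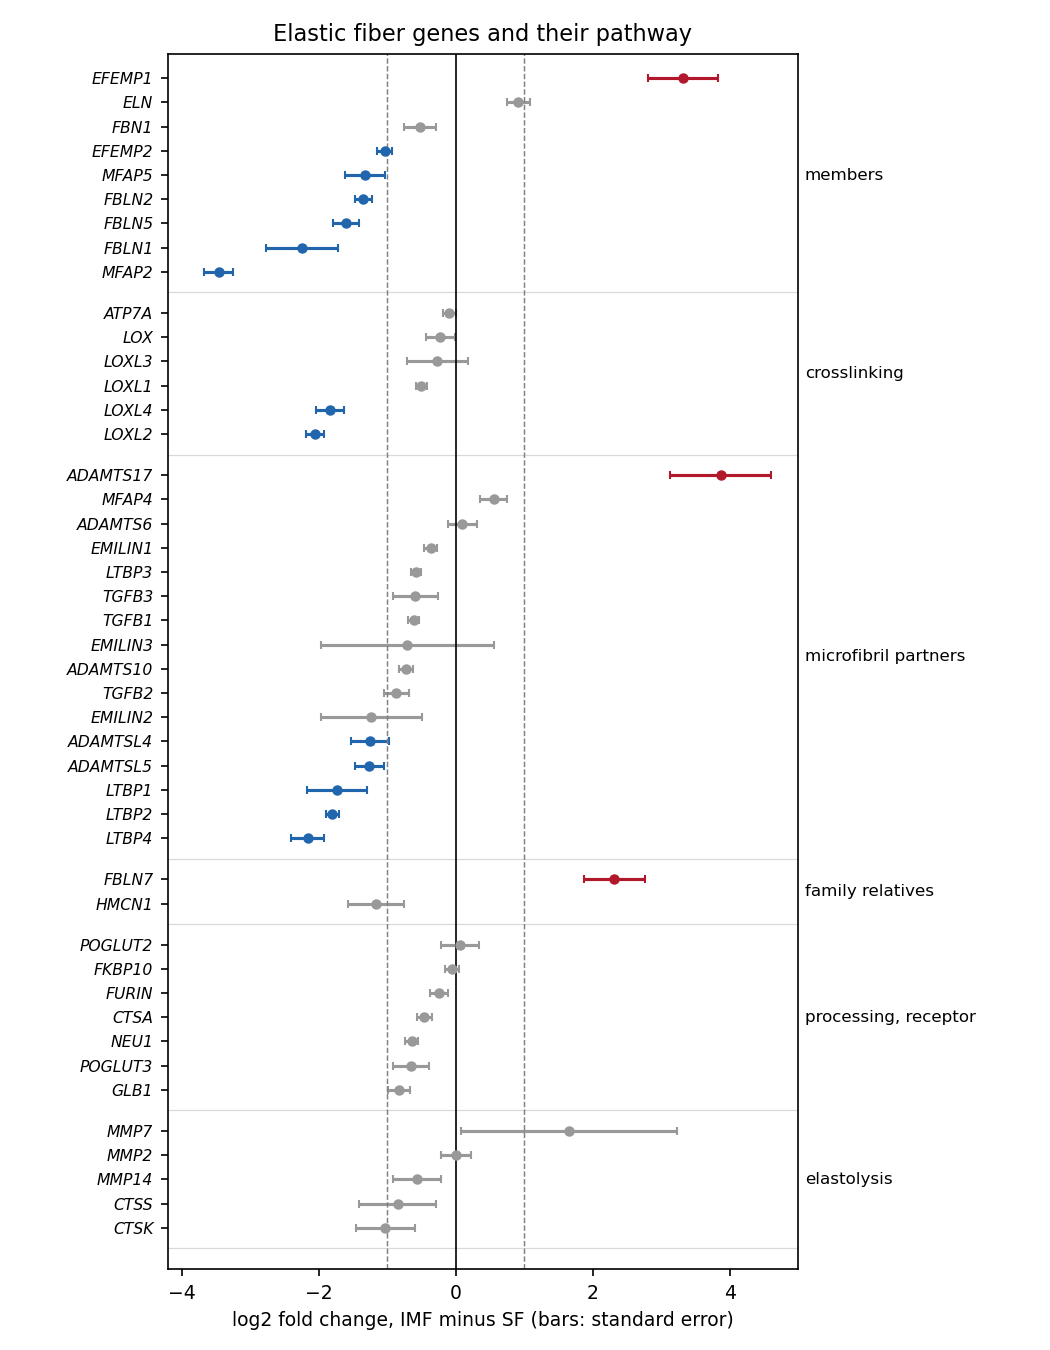
Log2 fold change (IMF minus SF, horizontal axis) of the elastic fiber genes and of 36 other genes of elastic fiber formation, with bars of 1 standard error. Red points were past both thresholds and higher in IMF, blue points lower, gray points not past, and dashed lines mark a log2 fold change of 1 in either direction; *MMP9*, with 0 counts in SF, is not drawn.

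Markers of other cell types were read beside these results, and their part in the differences of the elastic fiber genes was not tested. In bulk RNA, fewer cells of a type and less RNA per cell cannot be told apart. For the counts of markers called here and in the next paragraph, the background is 4.78% of all genes called higher and 4.04% called lower. All 9 skeletal muscle markers were higher in the IMF clones, with sums of 934, 914, 916 and 814 CPM in IMF1 to IMF4 and 22.7, 2.15, 7.79 and 24.7 CPM in SF1 to SF4. By mean TPM the most abundant was *ACTC1* in IMF (207 TPM) and *DES* in SF (8.46 TPM), and *MYOD1* and *MYOG* were at 0 in all SF clones. All 10 endothelial markers were higher in the IMF clones as well, with sums of 338, 333, 345 and 358 CPM in IMF and 2.72, 4.50, 3.65 and 2.81 CPM in SF. Of these *SELP* was the most abundant in IMF (80.4 TPM) and *VWF* in SF (0.422 TPM), and *KDR*, *SELE* and *CD93* were at 0 in all SF clones.

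Smooth muscle and pericyte markers moved in both directions, 5 of 8 lower in the IMF clones (*ACTA2*, *TAGLN*, *CNN1*, *LMOD1* and *CSPG4*), 2 higher (*MYH11* and *MCAM*) and 1 not past the thresholds. Their sums were 2581, 2606, 2457 and 2342 CPM in IMF1 to IMF4 and 11522, 4197, 3421 and 7479 CPM in SF1 to SF4, with *TAGLN* the most abundant gene over all clones by TPM. SF1 and SF4 were thus high for these markers. Of 5 leukocyte markers 1 was higher (*CD14*) and 1 lower (*CD3E*, the most abundant of them by mean TPM). *PTPRC*, the most abundant by mean CPM, was lower in every IMF clone than in every SF clone. It did not pass (log2 fold change -1.79, adjusted p = 0.0518, edgeR's test). The sums of this list were from 17.3 to 39.7 CPM in IMF and from 45.7 to 78.3 CPM in SF, and *ITGAM* was at 0 in IMF2 and IMF3. Of 2 tendon markers *SCX* was lower and *MKX*, the more abundant, did not pass, with sums from 7.63 to 8.70 CPM in IMF and 12.5, 14.0, 52.4 and 22.7 CPM in SF1 to SF4. Of 10 preadipocyte and fibroblast markers, *PPARG* and *COL1A1* were lower in the IMF clones and 8 did not pass. By mean TPM the most abundant was *COL1A2* in IMF (3766 TPM) and *COL1A1* in SF (8239.7 TPM). *PDGFRA* (log2 fold change 0.49, adjusted p = 0.0214, edgeR's test) was above in every IMF clone, short of the fold threshold. The list had a median log2 fold change near 0, while its summed level, largely *COL1A1* and *COL1A2*, ran from 31845 to 33371 CPM in IMF and from 53274 to 60673 CPM in SF. *DLK1*, a preadipocyte marker, was at 0 in IMF2.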

How the data were processed

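RNA was sequenced from 8 bovine preadipocyte clones, 4 of intramuscular and 4 of subcutaneous fat, and each column was assigned by its sample title. The authors trimmed reads with Trimmomatic 0.39 and counted them per gene with featureCounts 2.0.2, and the deposited values used here are raw counts per gene with a gene length. The study's methods name HISAT2 and a non-stranded library, whereas the submitters' notes name STAR 2.7.11a and the labels describe dUTP strand marking, and the labels count 5 steers where the methods give another number. The authors' group means and DESeq2 results were not used. A row named "-", holding between 0.0148% and 0.0209% of the counts of a clone, was left out.

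Testing covered the 18339 of 18871 genes whose counts summed to 20 or more, with edgeR 4.0.16 (R 4.3.3), TMM scaling and a quasi-likelihood test, its p-values adjusted by the Benjamini-Hochberg method across the genes tested, with thresholds of 0.05 for the adjusted p and 1 for the absolute log2 fold change. Log2 fold changes are edgeR's fitted values, and folds are ratios of mean CPM. TPM was computed from the deposited gene length, and ratios had an offset of 0.5 counts and a two-sided exact permutation test over 70 assignments, adjusted over 3 ratios instead of the 4 planned because that of *FBN2* was not computed. The fit was tested on simulated data, where edgeR called most but not all of the planted differences, each with the right sign, along with a few genes that had none. Alternatives were DESeq2 1.42.0, limma-voom (limma 3.58.1), other scalings and filters, a replicate block, a test against the fold threshold and leaving out each clone. An analysis of only the genes in the RefSeq list, another without genes whose 8 counts were all even, and the counting-noise comparison were chosen after seeing the data.

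The 10 members and the gene lists were chosen with earlier results of these data known. Genes named were all members, those of each pathway list past both thresholds and those with the highest mean TPM, up to 5, the 5 most like *ELN*, and of each marker list the most abundant and those past the thresholds, up to 3. This rule was not kept throughout. *EMILIN1* went unnamed while *LTBP3* and *TGFB1*, with lower mean TPM, were named, and more than 3 smooth muscle markers were named. Others, among them *EMILIN2*, *HMCN1*, *TGFB2*, *TGFB3*, *CTSS*, *POGLUT2*, *POGLUT3*, *PTPRC*, *KRT17*, *PDGFRA*, *COL1A2*, *DES*, *VWF* and the markers at 0, were chosen after their values were seen. List genes without a row, such as *FBN2*, were not analysed here. Figures were drawn with matplotlib 3.10.9 (Python 3.11.15).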

Additional observations from a re-analysis of the deposited data

Results flagged for a closer look

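In 12 of 91 groups of 4 clones, 1 clone stood apart from the other 3 by Dixon's ratio at the 5% level, where chance alone gives about 1 in 20. None was an elastic fiber gene of the list, and SF1 was the clone in 6 of the 12. The 12 were *LOXL1* in SF1 (158 CPM, other SF clones 134 to 137), *ATP7A* in SF1 (42.0, others 53.6 to 55.0), *ADAMTSL4* in SF1 (81.5, others 32.6 to 37.3), *ADAMTS6* in SF1 (10.3, others 5.34 to 6.01), *ADAMTS17* in SF1 (1.03, others 0.0551 to 0.200) and *FURIN* in SF1 (150.5, others 101 to 109). Also apart were *TGFB1* in SF2 (49.1, others 60.8 to 62.1), *LOXL4* in SF3 (793, others 430.4 to 463) and *LTBP4* in SF4 (39.8, others 80.8 to 89.2). Among the IMF clones these were *MMP2* in IMF1 (2872, others 2682 to 2699), *MMP7* in IMF2 (1.24, others 0 to 0.0959) and *HMCN1* in IMF4 (172, others 156 to 157). No cause was tested.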

How the results depend on the processing

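With 19 alternatives, the number of elastic fiber genes past both thresholds was 7 or 8 except in the test against the fold threshold itself (glmTreat), which left 3 (*EFEMP1*, *FBLN5* and *MFAP2*), 6 genes of elastic fiber formation and 631 of all genes, as it asks for more. The directions of the 9 genes held under all 19. Over all genes 1618 passed, 1996 with DESeq2, 1772 with limma-voom and 1332 to 1643 without 1 clone, and pathway genes numbered 9 to 12 without 1 clone. The analyses chosen after seeing the data gave 1547 genes for those in the RefSeq list and 1613 without all-even counts, with 7 elastic fiber genes past in both. With same-numbered clones as a block the log2 differences of the ratios are by arithmetic the same (2.20 and 4.73), which says nothing about stability, and the smallest p that a sign-flip permutation allows is 0.125. Without 1 clone the difference for *MFAP5* to *MFAP2* ran from 2.00 to 2.53 and that for *FBLN2* to *FBLN1* from 0.022 to 1.00. Whether clone numbers pair animals is not stated. The depth limits a gene with 3 counts or fewer in every clone of a group, such as *MMP9* in SF, to a bound.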

Other observations

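Summed over all genes compared, the chi-square per degree of freedom between a pair of clones was 53.8 to 124.8 in IMF and 41.3 to 114.1 in SF. *KRT17* took 4.66%, 6.88%, 5.79% and 7.80% of the counts in IMF1 to IMF4 and 3.85%, 3.65%, 4.12% and 7.26% in SF1 to SF4. Of the 18339 genes tested, 1578 had even counts in all 8 clones, among them 3 genes of the lists (*EMILIN3*, *MMP7* and *DLK1*). The cause was not tested.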
